A study of Homo sapiens with 4 samples.

Results

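Cytochrome P450 enzymes of the CYP3A, CYP2C, CYP2A and CYP2B subfamilies are encoded in tandem gene clusters, and 3 such clusters were examined for regions with more H3K4me1 reads after depletion of LSD2 (gene KDM1B) than in control cells. The peaks were those of the deposited list that overlapped the span of a cluster on hg19. The spans were chromosome 7 from 99240001 to 99470000 for CYP3A (230 kb), chromosome 10 from 96440001 to 96830000 for CYP2C (390 kb) and chromosome 19 from 41340001 to 41640000 for CYP2A-CYP2B (300 kb). They held 47 of the 160601 distinct peaks in the list, 19 in CYP3A, 14 in CYP2C and 14 in CYP2A-CYP2B. The borders of the spans were taken as given and not from the peaks, but the clusters were chosen with earlier results of these data known.

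The study sequenced HepG2, an established human line from a liver tumour. One group received siRNA against LSD2 and the other a control siRNA against GL3 luciferase, and an anti-H3K4me1 ChIP library and an input library were made of each, so that 4 groups hold 1 sample each. A peak in the list is a stretch where the knockdown H3K4me1 library exceeded the control H3K4me1 library. Stretches higher in the control were not analysed here, the depth of the libraries is unknown, and knockdown of LSD2 itself cannot be checked from peak positions. With 1 library per condition no test between conditions was made, and every interval given covers counting error only, treats peaks as independent and says nothing of the spread between cultures.

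P450 enzymes oxidise drugs, steroids and dietary compounds, and the liver is the main site of their expression. Their genes are switched by liver factors such as HNF4A and by the xenobiotic receptors PXR and CAR, which bind promoters and distant enhancers. H3K4me1 marks such enhancers and the flanks of promoters, and LSD2 removes methyl groups from H3K4. HepG2 is known for low levels of many of these enzymes compared with liver.

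All 9 member genes were found in the RefSeq gene table of GRCh38.p14, which served for names and order only. Along chromosome 7 their order was CYP3A5, CYP3A7, CYP3A4 and CYP3A43. CYP3A4 is the major drug-oxidising P450 of adult liver, CYP3A7 is the fetal form, CYP3A5 is made in the livers of only some adults, and CYP3A43 is a weakly expressed relative. On chromosome 10 the order was CYP2C18, CYP2C19 and CYP2C8. CYP2C19 oxidises omeprazole and activates clopidogrel, CYP2C8 oxidises paclitaxel, and CYP2C18 gives little protein in liver. On chromosome 19 CYP2A6, the nicotine oxidase, preceded CYP2B6, a target of CAR that oxidises efavirenz and bupropion. No annotation of hg19 was used here, so no peak was assigned to a single gene and every value below belongs to a cluster.

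Promoter sequences were at hand for 8 of the 9 genes, from RefSeq on GRCh38.p14, each from 250 bases before to 50 bases after the start of the gene. Of the CYP3A genes 3 are shown first, to compare them at the element through which PXR is known to act on CYP3A4, an everted repeat of the half-sites TGAACT and AGGTCA with 6 bases between them. Capitals mark these half-sites, and positions of half-sites are counted in bases before the gene start.
CYP3A4, chr7:99784324-99784365, minus strand: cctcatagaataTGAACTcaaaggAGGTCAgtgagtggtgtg
CYP3A5, chr7:99680080-99680121, minus strand: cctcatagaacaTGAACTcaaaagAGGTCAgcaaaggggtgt
CYP3A7, chr7:99735335-99735376, minus strand: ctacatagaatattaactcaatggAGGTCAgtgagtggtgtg

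The complete repeat began 169 bases before the start of CYP3A4 and 113 bases before that of CYP3A5. The repeat was found, on either strand, in 3 of 35116 promoters of the same length (0.00854%), and CYP3A4 and CYP3A5 are 2 of these 3. The letters searched were those of the element known from CYP3A4, so its own match was fixed in advance. CYP3A7 held the AGGTCA half-site at a similar place, 156 bases before its start against 157 in CYP3A4, but not the exact letters TGAACT in front of it. Its bases at that place read ttaact. Only exact letters were searched, so whether this variant serves as the element was not tested. CYP3A43 held neither the repeat nor AGGTCA on either strand. AGGTCA, which is also the second part of the repeat, occurred in 4 of the 8 member promoters, the fourth being CYP2B6, and in 13.8% of all promoters.

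The genes of the other clusters are shown for CAAAGTCC, the core of the motif that HNF4A is known to bind, which capitals mark.
CYP2C8, chr10:95069531-95069574, minus strand: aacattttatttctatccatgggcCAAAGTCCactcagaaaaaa
CYP2C19, chr10:94762534-94762577, plus strand: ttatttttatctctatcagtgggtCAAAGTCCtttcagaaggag
CYP2A6, chr19:40850484-40850527, minus strand: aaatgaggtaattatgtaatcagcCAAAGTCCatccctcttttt

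CAAAGTCC lay 53 bases before the start of CYP2C8, 56 before that of CYP2A6 and 123 before that of CYP2C19. CYP2B6 held it on the opposite strand, 230 bases before its start. The 4 CYP3A promoters held it on neither strand. Of all promoters, 1.20% held it on at least 1 strand. These matches describe the letters of the promoters. The motif was chosen after the data were seen, so the share over all promoters is no test of them. Whether any of the 47 peaks covers one of them was not analysed, since peaks and promoters are placed on different builds.

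The 3 clusters differed in how many peaks they carried for their length. CYP3A was the densest with 82.6 peaks per Mb (exact 95% Poisson interval 49.7 to 129.0), CYP2A-CYP2B followed with 46.7 (25.5 to 78.3), and CYP2C was the sparsest with 35.9 (19.6 to 60.2). The density of CYP3A was 2.30 times that of CYP2C (exact conditional interval 1.09 to 4.96), and this interval lay above 1. The interval is not adjusted for setting the densest of the 3 clusters against the sparsest. The surroundings of CYP3A and CYP2C stood in the opposite order, since the flanks of CYP3A held 0.716 times as many peaks as those of CYP2C (0.559 to 0.914). The ratio of CYP3A to CYP2A-CYP2B was 1.77 (0.842 to 3.82) and that of CYP2A-CYP2B to CYP2C was 1.30 (0.574 to 2.94), both with intervals that included 1. The 3 clusters together had 51.1 peaks per Mb and their 6 flanks of 1 Mb 65.0, a ratio of 0.786 (0.568 to 1.07).

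**Figure D1:**
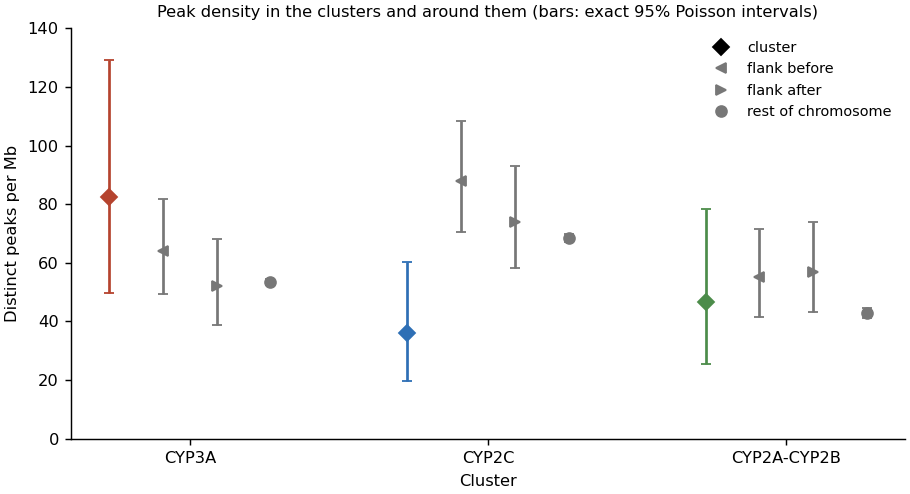
Distinct peaks per Mb (vertical axis) in each cluster (coloured diamond), in the 1 Mb before and after it (triangles) and on the rest of its chromosome (circle), with exact 95% Poisson intervals as bars. CYP2C at 35.9 lies below all its references, CYP3A at 82.6 lies above all of its own with a wide interval, and CYP2A-CYP2B at 46.7 lies between its flanks and its chromosome.

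CYP2C held fewer peaks for its length than its surroundings did. The 1 Mb before it held 88 peaks and the 1 Mb after it 74, against 14 peaks in its 0.39 Mb. Its density was 0.443 times that of both flanks together (0.237 to 0.765), 0.408 times that of the flank before it and 0.485 times that of the flank after it. Against the rest of chromosome 10, at 68.4 peaks per Mb, the ratio was 0.525 (0.287 to 0.881). All of these intervals lay below 1, and so did those of the 2 single flanks (0.214 to 0.721 and 0.253 to 0.866).

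To see how often a stretch of this length is as sparse, the autosomes were divided into back-to-back windows of 390 kb and each was set against its own 1 Mb flanks. Of 6652 windows, 14.9% were lower than their flanks by 1.5-fold or more and 9.28% were higher by as much, so a window past this fold is common in the list. CYP2C was past it on the low side. Its ratio of 0.443 was matched or undercut by 2.98% of the windows, where the middle 95% ran from 0.421 to 1.87. On chromosome 10 itself 19 of 326 windows (5.83%) held 14 peaks or fewer, and the median window held 26. The flanks could be cut into 4 windows of 390 kb, which held between 26 and 41 peaks, all more than the 14 of the cluster.

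Long empty stretches took up much of CYP2C. The longest ran from 96639693 to 96755849, which is 116 kb or 29.8% of the span. None of the 160 distances between neighbouring peaks in the flanks was as long, the longest being 71.3 kb. Of the autosomal windows of 390 kb with at least 2 peaks, 6.57% held a stretch between peaks of this length or more, as did 15 of 325 on chromosome 10 (4.62%). A further 2 stretches, of 62.3 and 57.4 kb, also exceeded 50 kb, and the 3 together took up 60.5% of the cluster. In the flanks 4 of the 160 distances exceeded 50 kb, as did 4.22% of those on chromosome 10. The share of the span was not particular to CYP2C, since such stretches took up 61.4% of CYP2A-CYP2B. Leaving the longest stretch out of the span, which can only raise the ratio, gave 0.631. The stretches and the low density come from the same 14 peaks, and fewer peaks leave longer distances. The stretches are therefore not a result separate from the density.

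Most peaks of CYP2C lay in its first part. Of 3 equal parts of the span, the first held 8 peaks and the other two held 3 each, or 61.5 against 23.1 peaks per Mb (exact intervals 26.6 to 121 and 4.76 to 67.4, which overlap). The first peak (96443462 to 96443802, 341 bp) lay 3.46 kb inside the span and the last (96827580 to 96827967, 388 bp) 2.03 kb from its end. The closest neighbours lay from 96528574 to 96528813 and from 96530610 to 96530900, with 1796 bp between them. The widest peak of the cluster, 620 bp from 96552370 to 96552989, stood at the edge of the 62.3 kb stretch.

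**Figure D2:**
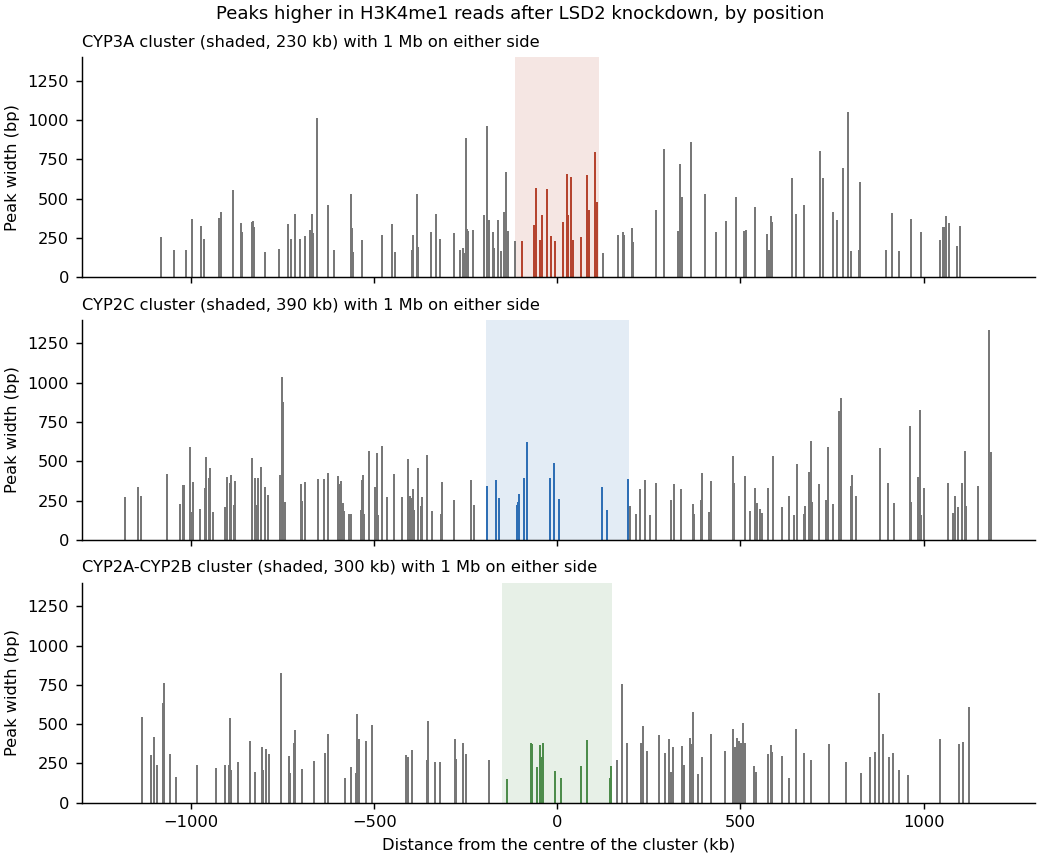
Each vertical line is a distinct peak at its distance from the centre of the cluster (horizontal axis, kb) with its width as height (vertical axis, bp). The cluster is shaded and its peaks coloured, and grey lines are peaks of the 1 Mb on either side. CYP3A is filled with peaks along its length, whereas CYP2C and CYP2A-CYP2B each have 3 empty stretches over 50 kb, the longest being 116 kb in CYP2C.

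CYP3A carried peaks along its whole length. The 1 Mb before it held 64 peaks and the 1 Mb after it 52, against 19 in its 0.23 Mb. The density ratio to both flanks was 1.42 (0.828 to 2.33), to the flank before it 1.29, to the flank after it 1.59, and to the rest of chromosome 7, at 53.5 peaks per Mb, 1.55 (0.930 to 2.41). Every one of these ratios was above 1, but the intervals included 1, so a higher density than the surroundings was not shown. Of 11314 autosomal windows of 230 kb, 15.1% had a ratio at least as high, 11.9% were higher than their flanks by 1.5-fold or more and 19.5% were lower by as much. The 230 kb directly before the cluster held 22 peaks, more than the 19 of the cluster, while the other 7 windows of the flanks held 9 to 15.

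CYP3A had no long empty stretch. The median distance between neighbouring peaks was 9.39 kb, against 11.8 kb in the flanks and 10.6 kb on the chromosome. The longest distance, from 99257238 to 99290382, was 33.1 kb, while 85.5% of the autosomal windows of 230 kb with at least 2 peaks held one as long or longer. No distance exceeded 50 kb. Its 3 equal parts held 5, 8 and 6 peaks, the middle part being the fullest. The closest neighbours, 99369797 to 99369993 and 99370489 to 99370840, lay 495 bp apart in that part.

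CYP3A peaks had a larger median width than those around them. Their median width was 394 bp, against 306 bp in the flanks, 313 bp on the rest of chromosome 7 and 316 bp in the whole list. The widest was 795 bp (99456976 to 99457770), and the next were 659 bp (99379819 to 99380477) and 649 bp (99435129 to 99435777). The narrowest, 197 bp, was the first of the 2 closest neighbours. At or above the upper quartile of the list, 396 bp, stood 8 of the 19 peaks (42.1%, exact binomial interval 20.3 to 66.5%), against 27.6% in the flanks (19.7 to 36.7%). These intervals overlap. Among 10807 windows of 230 kb with at least 5 peaks, 5.33% had a median width of 394 bp or more. The first peak (99257011 to 99257237, 227 bp) and the last (99462056 to 99462534, 479 bp) bounded the series. Through width and number together, peaks covered 34.4 kb per Mb of CYP3A against 20.7 kb per Mb of its flanks, a ratio of 1.66.

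**Figure D3:**
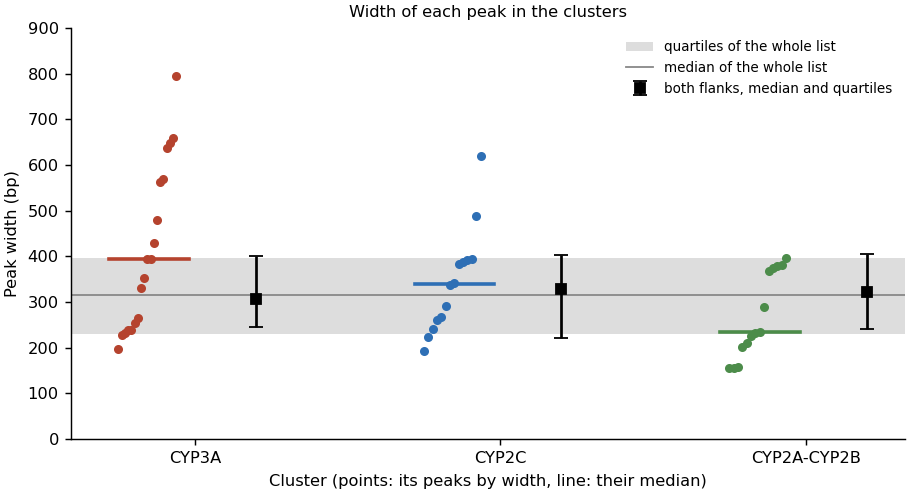
Width of every peak in the 3 clusters (points, in bp, ordered by width, with the cluster median as a line), with the median and quartiles of both flanks (square and bars) and of the whole list (grey line and band). The CYP3A median of 394 bp lies near the upper quartile of the list, 396 bp, and the CYP2A-CYP2B median of 233 bp near its lower quartile, 229 bp.

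CYP2A-CYP2B differed in density from its flanks by less than counting error. Its 14 peaks in 0.30 Mb compared with 55 in the 1 Mb before it and 57 in the 1 Mb after it, a density ratio of 0.833 (0.441 to 1.46). This ratio has no stable direction, since it was 1.09 (0.595 to 1.83) against the rest of chromosome 19, at 42.8 peaks per Mb, and 1.004 with flanks of 2 Mb. Of 8667 windows of 300 kb, 34.6% had a ratio as low, 17.1% were lower than their flanks by 1.5-fold or more and 10.5% were higher by as much. The 6 windows of 300 kb in the flanks held 11 to 21 peaks, a range that includes the 14 of the cluster.

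**Figure D4:**
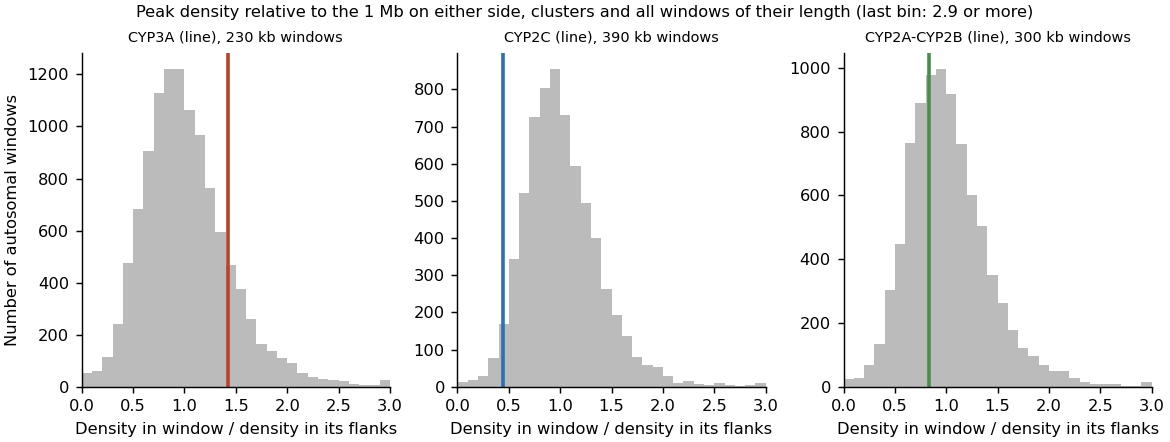
Number of autosomal windows (vertical axis) by the ratio of their peak density to that of their 1 Mb flanks (horizontal axis), for windows as long as each cluster, with the cluster as a coloured line. CYP2C at 0.443 lies in the lower tail, CYP3A at 1.42 on the upper shoulder and CYP2A-CYP2B at 0.833 in the middle.

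CYP2A-CYP2B peaks had a smaller median width than those around them. The median was 233 bp, against 322.5 bp in the flanks and 324 bp on the rest of chromosome 19. Below the lower quartile of the list, 229 bp, stood 6 of 14 peaks (42.9%, exact interval 17.7 to 71.1%) against 19.6% in the flanks (12.7 to 28.2%), and these intervals overlap. No peak exceeded 396 bp, while the flanks reached 824 bp. The 3 widest were 396 bp (41570537 to 41570932), 381 bp (41419039 to 41419419) and 378 bp (41450027 to 41450404), and the narrowest was 154 bp (41352006 to 41352159), the first of the span. Among 8496 windows of 300 kb with at least 5 peaks, 4.14% had a median width of 233 bp or less. Covered bases were 12.5 kb per Mb against 19.2 kb per Mb in the flanks, a ratio of 0.652. Counting only peaks at or above the list's median width lowered the density ratio from 0.833 to 0.546.

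Peaks and empty stretches alternated in CYP2A-CYP2B. Between 41419039 and 41450404 lay 6 of the 14, and 3 empty stretches of 66.9, 61.6 and 55.6 kb took up 61.4% of the span. Stretches of this length were common on chromosome 19, where 12.9% of all distances between neighbouring peaks exceeded 50 kb, and the flanks had one of 92.2 kb. Of 171 windows of 300 kb on this chromosome, 90 (52.6%) held a stretch as long as the longest of the cluster. The peaks from 41419039 to 41419419 and from 41419459 to 41419833 were separated by 39 bp. A distance as short was held by 6.09% of the autosomal windows of 300 kb with at least 2 peaks, and by 4 of the 171 on chromosome 19 (2.34%). The last peak of the span (41636351 to 41636585) was 235 bp wide. The narrowest peak of CYP2C (96769999 to 96770190, 192 bp) stood at the edge of an empty stretch, the one of 57.4 kb. Each of the 3 stretches of CYP2C over 50 kb has a peak at both edges, so this position is common among its peaks. The 2 other widest peaks of CYP2C were 489 bp (96624896 to 96625384) and 394 bp (96615255 to 96615648), and its median of 338.5 bp was close to the 328.5 bp of its flanks.

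P450 clusters hold near-identical genes and pseudogenes, and a read that fits several copies cannot be placed with certainty. How such reads were treated is not given in the sources used here. Their part in the empty stretches of CYP2C and CYP2A-CYP2B was not tested.

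Some peaks are written in several identical rows of the list. In the clusters 6 of 47 peaks (12.8%) were listed more than once, each in 2 rows, against 10.7% of the whole list. In CYP3A this was 1 of 19 peaks (5.26%, exact interval 0.133 to 26.0%), the one from 99308156 to 99308393, against 30.2% in its flanks (22.0 to 39.4%) and 9.59% on the rest of chromosome 7. In CYP2C it was 3 of 14 (21.4%, 4.66 to 50.8%), which were the first 3 peaks of the span (the first as given above, then 96467488 to 96467871 and 96476388 to 96476654). The flanks of CYP2C had 22.8% and the rest of chromosome 10 had 8.57%, so the share was 0.938 times that of the flanks and 2.50 times that of the chromosome. In CYP2A-CYP2B it was 2 of 14 (14.3%, 1.78 to 42.8%), the first peak and the one from 41450027 to 41450404, against 22.3% in the flanks. What a repeated row stands for is not given in the sources used here.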

How the data were processed

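The 1 deposited list analysed gives the chromosome, start and end of peaks and no height, fold or p-value. Per the file header, the authors trimmed reads, removed duplicates and called peaks with MACS, at a p-value cutoff of 1e-05 with a fragment length of 128 bp, the LSD2 siRNA library as treatment and the GL3 siRNA library as control. BWA and hg19 are named in the submitters' processing notes, without versions. Identical rows were counted as 1 peak (180505 rows, 160601 peaks), and starts were converted to count from 1. A peak belonged to a cluster if any base overlapped it, and flanks were 1 Mb on either side. Chromosome densities leave out peak-free gaps over 1 Mb, and windows were left out where they or their flanks touched such a gap or ran past the outermost peaks. Ratios of densities carry exact conditional Poisson intervals (95%), and shares exact binomial intervals (Clopper-Pearson). Depth is unknown, and the number of peaks a region yields can vary with how deeply each library was sequenced and how well each ChIP worked. Python 3.11.15, pandas 2.3.3 and SciPy 1.17.1 were used. The window step was run on simulated peaks placed independently of each other, and the interval step on simulated Poisson counts. Such runs check the calculation only. They cannot show how well the intervals hold for the deposited list, where peaks may not be independent. The clusters, genes and comparisons were chosen with earlier results of these data known. Motifs, the removal of the longest empty stretch and the share of windows with as long or as short a distance between peaks were chosen after the data were seen. The peaks named are the first, the last, the 3 widest, the narrowest, the closest neighbours, every peak listed more than once and the longest empty stretch of each cluster. Peaks beside an empty stretch, and the run of 6 peaks in CYP2A-CYP2B, were described after their positions were seen.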

Additional observations from a re-analysis of the deposited data

How the results depend on the processing

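Each density ratio to the flanks was recomputed under 13 alternatives, of which the removal of the longest empty stretch was added after the data were seen, and all values lay within the counting interval of the reported ratio. Assignment by midpoint gave the reported values exactly. Leaving out the longest empty stretch can only raise a ratio (to 1.66 for CYP3A, 0.631 for CYP2C and 1.07 for CYP2A-CYP2B). It took the ratio of CYP2A-CYP2B past 1 and left that of CYP2C below 1. Both alternatives are left out of the counts that follow. Over the other 11, the CYP2C ratio was below 1 by 1.5-fold or more in each, from 0.402 (every row counted) to 0.544 (peaks within 1 kb merged). The CYP3A ratio was above 1 in all 11, from 1.07 (every row counted) to 1.86 (narrower peaks left out, keeping those at the list's median width or above), and past 1.5-fold in 4. The CYP2A-CYP2B ratio ranged from 0.546 to 1.09 and was above 1 in 2, the rest of the chromosome (1.09) and flanks of 2 Mb (1.004). The cause of these changes was not tested. With 1 library per group no replicate could be left out and no paired analysis was possible. Unknown depth limits every count: an empty stretch in a cluster does not show that H3K4me1 was the same in both libraries there.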
